A study of Homo sapiens with 13 samples.

Results

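The histone genes on a human expression array were followed across inhibition of the histone H3 lysine 9 methyltransferases G9a and GLP, knockdown of G9a and knockdown of WIZ in HEK293T cells. Members were taken by symbol alone, as every probe whose gene symbol in the array files starts with HIST1H to HIST4H, H2AF, H3F3 or H1F. This gave 100 probes for 82 genes, out of 42405 probes for 35589 genes or unnamed transcripts. Of the 82 genes, 77 were bright enough on the arrays to be tested, each by its brightest probe: 9 genes of linker histone H1, 22 of H2A, 17 of H2B, 15 of H3 and 14 of H4. Of these, 64 have HIST symbols and are called HIST cluster genes here, and the other 13 are called replication-independent. This split is by symbol alone, and neither position nor mRNA form was checked gene by gene. The 5 genes below the filter on dim probes were H1FOO, HIST1H2AA, HIST1H2BA, HIST1H4G and HIST2H2BA, and they carry no test. For 6 of the 100 probes the files list several genes, so these values belong to no single gene.

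HEK293T is an established line from human embryonic kidney that expresses the large T antigen of SV40. In one arm, cells received UNC0638, a small molecule that inhibits G9a and GLP, at 1 µM for 48 h, and were compared with cells given the same volume of the solvent DMSO in 5 biological replicates. In the other arms, cells were transfected with an siRNA against WIZ or against G9a by means of a lipid reagent and compared after 72 h with cells given a control siRNA, in 2 biological replicates each. WIZ, a protein with several zinc fingers, is a partner of G9a and GLP. Total RNA of treated and control cells was hybridised together in Cy3 and Cy5 on 13 Agilent arrays. UNC0638 replicates 1 and 2 and both WIZ siRNA replicates were hybridised in both dye orientations, whereas UNC0638 replicates 3 to 5 and both G9a siRNA replicates had the treated RNA in Cy5 only. All cells are the same line, it is not stated whether both siRNA arms had the same control RNA, and no source used here gives the way the RNA was primed and labelled.

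The core histones H2A, H2B, H3 and H4 wrap DNA into nucleosomes, and the linker histone H1 binds the DNA between them. The HIST genes are replication-dependent: they sit in clusters, lack introns, and are switched on together in S phase, when newly made DNA must be packaged. Most of their mRNAs end in a conserved stem-loop bound by the protein SLBP instead of a poly(A) tail, and they are degraded when DNA synthesis stops. Replication-independent genes such as H2AFZ, H3F3A and H1F0 make variant histones throughout the cell cycle from ordinary polyadenylated mRNAs. If the RNA was primed with oligo-dT, which is not stated, most HIST mRNAs would be seen only through their polyadenylated forms. In bulk RNA of this kind, fewer cells in S phase and less histone mRNA per S-phase cell cannot be told apart.

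Values are given as log2 of treated over control RNA (the log2 ratio), so that -1 means a level of 50% of control. A gene was called changed where its adjusted p in limma, a linear model fitted here over all 28931 tested features and all 9 replicates, was below 0.05. The p-values measure the spread between biological replicates, and with 2 replicates per siRNA that spread is largely set by UNC0638. The targeted transcripts were lower in their own arms: EHMT2, which encodes G9a, read -1.67 and -1.65 under G9a siRNA, and WIZ read -2.26 and -1.97 under WIZ siRNA. The control RNA was above background for 6 of 6 HEK293T marker genes on all 13 arrays. Of 13 markers of other cell types, testis among them, 4 were above background in the control RNA on all arrays and 9 on most.

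By the pixel spread of their Cy3 background the arrays formed 2 sets, and the labels do not say what these sets are. The smallest pixel SD of the Cy3 background was 4 or 5 on the 8 arrays of UNC0638 replicates 1 and 2 and of WIZ siRNA, and 11 on the 5 arrays of UNC0638 replicates 3 to 5 and of G9a siRNA. WIZ siRNA and G9a siRNA therefore lie in 1 set each, and UNC0638 alone has replicates in both, so a fit with array set as a block takes the set effect from UNC0638. Median spot brightness was also lower in the second set, at 194 to 240 in Cy3 and 151 to 301 in Cy5, against 320 to 415 and at least 447 in the first. Over all features, the SD of the log2 ratios was 0.168 to 0.171 in the first set, 0.505, 0.27 and 0.295 for UNC0638 replicates 3, 4 and 5, and 0.488 and 0.614 for G9a siRNA. UNC0638 replicate 3 and both G9a siRNA replicates thus stood apart by their spread over the whole array.

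The histone genes are near-copies of each other, which bears on what a probe of 60 bases can tell apart. A sequence was at hand for 74 of the 100 probes. For 33 of these, another gene of the same class had a probe that matched at 80% or more of the bases over an overlap of at least 30. Such close probes were found for 14 of 15 H3 probes, 9 of 13 H2B probes, 6 of 14 H4 probes, 4 of 22 H2A probes and 0 of 10 H1 probes. No pair was identical, and the pair with the most matching bases shared 53. The probes of HIST1H4J and HIST1H4K, the latter being the stem-loop probe below, matched at 40 of 41 overlapping bases. The H3 probes are shown here because they lie in the same stretch of the coding sequence, and because their ratios differ widely below. Capitals mark bases that differ from the HIST1H3B probe where both overlap.
HIST1H3B: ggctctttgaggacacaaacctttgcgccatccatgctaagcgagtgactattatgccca
HIST2H3D: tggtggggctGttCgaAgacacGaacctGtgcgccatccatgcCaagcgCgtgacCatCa
HIST3H3: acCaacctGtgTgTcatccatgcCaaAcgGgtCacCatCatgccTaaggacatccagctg
HIST1H3J: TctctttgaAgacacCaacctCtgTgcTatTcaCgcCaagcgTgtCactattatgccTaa
H3F3A: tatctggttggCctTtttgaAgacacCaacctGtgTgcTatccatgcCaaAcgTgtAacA
The overlaps with the HIST1H3B probe match at 45 of 54 bases for HIST2H3D, 35 of 46 for HIST3H3, 47 of 59 for HIST1H3J and 38 of 50 for H3F3A. On genome build 37.1, as the files give it, and all on the minus strand, the probes lie at chr6:26031922-26031981 (HIST1H3B), chr1:149784876-149784935 (HIST2H3D), chr1:228612646-228612705 (HIST3H3) and chr6:27858203-27858262 (HIST1H3J). The H3F3A probe also matches further loci and is placed by the files at chr2:175584933-175584992, so its value is not specific to H3F3A.

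The stem-loop that ends replication-dependent histone mRNAs was searched in the same 74 probes, as a pattern that leaves several bases variable. It was found in 1, as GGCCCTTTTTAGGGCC, in a second probe of HIST1H4K on build 37.1 at chr6:27798954-27799013, minus strand. Its stretch is given here with the stem-loop in capitals.
HIST1H4K: caacaaaaGGCCCTTTTTAGGGCCcc

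Promoters of 75 of the 82 genes were at hand from RefSeq (GRCh38.p14), from 250 bases before to 50 after the transcript start, and were read for motifs long associated with histone classes. They are shown because the HIST genes moved together in several replicates below. Matches were counted on both strands. CCAAT, the motif bound by NF-Y, was in 14 of 14 HIST H2A, 18 of 18 HIST H2B, 11 of 11 HIST H3 and 6 of 6 HIST H1 promoters, but in 3 of 13 HIST H4 promoters. It was also in 10 of the 13 replication-independent promoters, and in 35.7% of all 27305 promoters of the same length. The octamer ATTTGCAT, bound by POU2F1, was in 14 of 18 HIST H2B and 10 of 14 HIST H2A promoters, in 1 of 11 HIST H3 and 0 of 13 HIST H4 promoters, and in 1.8% of all promoters. AAACACA, the H1 box, was in 6 of 6 HIST H1 promoters and 5.76% of all. GGTCC, part of the H4 element bound by HINFP, was in 12 of 13 HIST H4 promoters and 46.1% of all. TATAAA was in 10 of 14 HIST H2A, 12 of 18 HIST H2B, 8 of 11 HIST H3, 7 of 13 HIST H4 and 3 of 6 HIST H1 promoters, in 4 of the 13 replication-independent ones, and in 12% of all. A match is a description of these letters and not a binding site. Of 6 genes described below, 120 bases before the start are printed with the matches to these motifs in capitals (GGTCC can overlap CCAAT).
HIST1H4E: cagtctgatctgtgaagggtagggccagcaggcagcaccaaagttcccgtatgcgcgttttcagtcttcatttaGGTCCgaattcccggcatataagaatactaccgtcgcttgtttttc
HIST1H3B: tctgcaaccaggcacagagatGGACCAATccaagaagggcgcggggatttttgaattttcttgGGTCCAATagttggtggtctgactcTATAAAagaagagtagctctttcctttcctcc
HIST1H2BK: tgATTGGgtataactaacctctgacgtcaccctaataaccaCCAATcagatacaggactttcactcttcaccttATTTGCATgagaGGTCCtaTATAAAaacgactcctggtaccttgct
HIST2H2AC: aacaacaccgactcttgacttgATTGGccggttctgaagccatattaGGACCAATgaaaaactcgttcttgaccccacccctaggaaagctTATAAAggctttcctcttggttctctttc
H1FX: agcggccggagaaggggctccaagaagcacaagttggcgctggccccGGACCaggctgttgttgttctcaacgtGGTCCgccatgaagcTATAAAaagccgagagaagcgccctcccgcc
HIST1H1C: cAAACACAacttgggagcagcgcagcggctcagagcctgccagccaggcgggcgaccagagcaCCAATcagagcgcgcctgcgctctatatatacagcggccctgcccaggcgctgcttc
On GRCh38.p14 these windows are chr6:26204490-26204609 (plus strand), chr6:26032100-26032219 (minus), chr6:27146859-27146978 (minus), chr1:149886798-149886917 (plus), chr3:129316287-129316406 (minus) and chr6:26056471-26056590 (minus), in the order printed.

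The first comparison asks which histone transcripts depend on G9a itself. Under G9a siRNA, 43 of the 77 histone genes fell and 0 rose (limma, adjusted p below 0.05), while 18.2% of all tested features fell and 15% rose. Before adjustment, 58 of the 77 were lower and 1, H2AFV, was higher at p below 0.05, against 6763 lower and 5757 higher of all 28931 features. The median over the histone genes was -0.55 in replicate 1 and -0.85 in replicate 2, against -0.01 in each over all features. By class, 13 of 15 H3 genes, 15 of 22 H2A genes, 8 of 17 H2B genes, 4 of 14 H4 genes and 3 of 9 H1 genes fell. Of the HIST cluster genes alone, 37 of 64 fell, with medians of -0.56 and -0.90 in the replicates. Both replicates were below 0 for 58 of the 64 (90.6%), against 40.4% of all features, and both were below -1 for 15 of them, against 2.2% of all features.

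These counts rest on few libraries. Without G9a siRNA replicate 2, 0 of the 77 genes and 0 of all features were called, and without replicate 1 there were 16, with 20.9% of all features in either direction. With array set as a block, 5 genes were called, H1FX, H2AFJ, H2AFX, HIST2H2BE and HIST3H2A, and 16.4% of all features in either direction. With UNC0638 replicates 3 and 5 left out, a setting chosen after seeing the data, 66 genes were called, 65 of them lower, with 43.3% of all features in either direction. In the fit over all 9 replicates that share was 33.2%.

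The ratios also moved with the base composition of the probes. Histone probes had a median GC content of 52.5%, against 43.3% over all probes with a sequence, and the ratio correlated with GC content at -0.49 and -0.51 in the G9a siRNA replicates, a description over 13973 features of the same libraries. The 3121 other features with a GC content of 47.1% to 55% had medians of -0.30 and -0.41. The 62 histone genes tested by a probe with a sequence lay at -0.50 and -0.76, and at -0.30 and -0.55 once the GC trend of each replicate was taken off. Over the 65 histone genes that have such a probe, 23 were then lower and 6 higher, against 40 lower and 1 higher on the same probes without that correction. The 6 were H1FNT, HIST1H1A, HIST1H1B, H2AFB2, H2AFV and HIST4H4. Of these, HIST1H1A, HIST1H1B, H2AFB2 and HIST4H4 were above background in neither channel on the G9a siRNA arrays and H1FNT not in the treated channel, so that H2AFV is the 1 whose ratio was measured on both sides. These counts stand without the share of all features in the same settings, so the change between them cannot be read as particular to the histone genes. The part of base composition in the result was not tested beyond this.

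**Figure D1:**
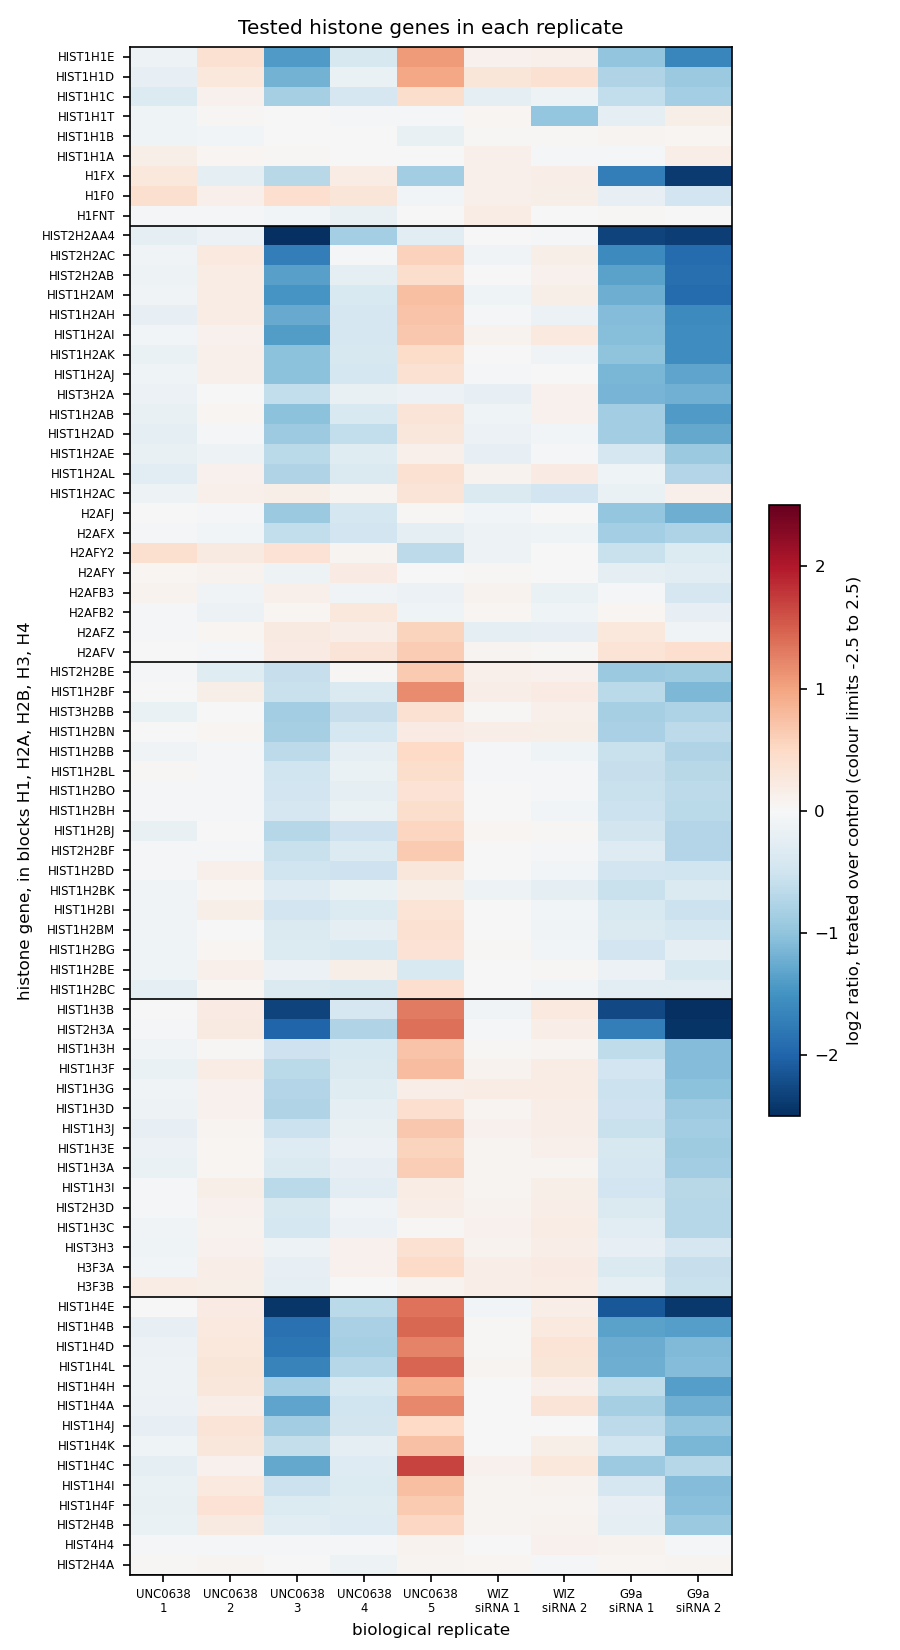
Log2 ratio of treated over control RNA for each of the 77 tested histone genes (y axis, in blocks H1, H2A, H2B, H3 and H4) in each of the 9 biological replicates (x axis), coloured from blue (lower) to red (higher) within limits of -2.5 to 2.5. The G9a siRNA columns and UNC0638 replicate 3 are mostly blue, UNC0638 replicate 5 is mostly red, and the WIZ siRNA columns are pale.

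Among the linker histone genes of the HIST clusters, HIST1H1C and HIST1H1E fell. HIST1H1C, the brightest H1 gene and one of the HIST genes known to make polyadenylated transcripts as well, read -0.61 and -0.85 under G9a siRNA (mean -0.73 ± 0.17 SD, n = 2, SE 0.239, adjusted p = 0.042). This call was lost in 13 of 24 alternatives, among them median centring (adjusted p = 0.0560) and the GC trend removed (-0.35, adjusted p = 0.209). HIST1H1E read -0.98 and -1.63 (mean -1.31 ± 0.46 SD, adjusted p = 0.0482), and HIST1H1D -0.75 and -0.92 without passing the test (mean -0.84 ± 0.12 SD, adjusted p = 0.113). All 3 were lower in both replicates. HIST1H1A, HIST1H1B and HIST1H1T, the last a testis H1, were above background in neither channel on the G9a siRNA arrays, and their ratios from -0.24 to 0.17 bear no direction.

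In the H2A class, 12 of 14 HIST genes fell, and they hold 6 of the 10 largest changes among the called histone genes. The probe of HIST2H2AA4, at chr1:149822628-149822687 on build 37.1, also matches its copy HIST2H2AA3, and it read -2.32 and -2.36 (mean -2.34 ± 0.02 SD, n = 2, SE 0.508, adjusted p = 0.00791). Its neighbours in the chromosome 1 cluster followed, HIST2H2AC at -1.60 and -1.92 (mean -1.76 ± 0.22 SD, adjusted p = 0.0122) and HIST2H2AB at -1.33 and -1.88 (mean -1.60 ± 0.39 SD, adjusted p = 0.00712). The HIST2H2AC promoter printed above holds CCAAT on both strands and TATAAA. On chromosome 6, HIST1H2AM read -1.22 and -1.93 (mean -1.58 ± 0.50 SD, adjusted p = 0.0161). HIST1H2AH read -1.09 and -1.59 (mean -1.34 ± 0.35 SD, adjusted p = 0.0179). HIST1H2AI read -1.06 and -1.56 (mean -1.31 ± 0.35 SD, adjusted p = 0.024). Each of these 6 was below -1 in both replicates.

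A probe for the same gene did not always give the same value. The second HIST1H2AM probe read -0.38 and -1.02 (adjusted p = 0.137 in the limma fit over all probes). HIST1H2AC had 3 probes. The brightest, which entered the test, lies at chr6:26138822-26138881 and read -0.16 and 0.13 (adjusted p = 0.942), whereas a probe at chr6:26124403-26124462 read -0.62 and -0.80 (adjusted p = 0.0273 over all probes) and the third -1.27 and -1.37 (adjusted p = 0.0108 over all probes). The HIST1H2AC call therefore depends on the probe. The remaining HIST H2A gene without a call was HIST1H2AL, at -0.10 and -0.74 (adjusted p = 0.208). HIST3H2A, on the smaller chromosome 1 cluster and named here after its values were seen, read -1.16 and -1.21 (adjusted p = 0.00289). Its treated channel was above background on 0 of 2 arrays and the control on 2 of 2, so the ratio is a bound, at least 2.27-fold lower, computed from single-channel values, which are open to dye bias.

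Of the H2B genes, 8 of 17 fell, the class median was -0.54 and -0.65 in the replicates, and no called H2B gene averaged below -1. HIST1H2BK, the brightest H2B gene and one that also makes polyadenylated mRNA, read -0.56 and -0.37 (mean -0.46 ± 0.13 SD, n = 2, SE 0.111, adjusted p = 0.0117). With the dye effect of each probe, taken from the swapped arrays, subtracted, it read -0.15 and was no longer called (adjusted p = 0.402). Its promoter, printed above, holds the octamer as well as CCAAT and a TATAAA box. HIST3H2BB read -0.83 and -0.77 (mean -0.80 ± 0.04 SD, adjusted p = 0.0275). HIST2H2BE, another gene with polyadenylated transcripts, read -0.92 and -0.88 (adjusted p = 0.0137), with the treated channel above background on 0 of 2 arrays, or at least 1.87-fold lower. Its second probe, at chr1:149857064-149857123, read -0.10 and 0.01, and its treated channel too was above background on 0 of 2 arrays. Neither HIST1H2BF, at -0.67 and -1.12 and with its treated channel below background (at least 1.64-fold, adjusted p = 0.0616), nor HIST1H2BC, at -0.26 and -0.27 (adjusted p = 0.267), passed the test. Probes of HIST2H2BF had opposite signs: the brightest read -0.32 and -0.74 (adjusted p = 0.108), and another 0.17 and 0.27 (adjusted p = 0.0408 over all probes).

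Of the H3 genes in the HIST clusters, 11 of 13 fell, and HIST1H3B had the lowest mean of all 77 genes. HIST1H3B read -2.26 and -2.98 (mean -2.62 ± 0.51 SD, n = 2, SE 0.627, adjusted p = 0.012). HIST2H3A read -1.73 and -2.45 (mean -2.09 ± 0.50 SD, SE 0.592, adjusted p = 0.0239). The other called HIST H3 genes had means from -0.86 in HIST1H3H (-0.63 and -1.09, adjusted p = 0.0232) to -0.49 in HIST1H3C (-0.28 and -0.71, adjusted p = 0.0188). HIST1H3G, in between, read -0.55 and -1.02 (mean -0.78 ± 0.33 SD, adjusted p = 0.014), and -0.41 with the GC trend removed (adjusted p = 0.0660). The probes printed above span this range: HIST2H3D, 9 bases from HIST1H3B over their overlap, read -0.36 and -0.72 (mean -0.54 ± 0.26 SD, adjusted p = 0.014), and HIST1H3J, 12 bases away, read -0.55 and -0.86 (mean -0.70 ± 0.22 SD, adjusted p = 0.0362). HIST3H3, known as a testis H3, read -0.21 and -0.41 and did not pass the test (adjusted p = 0.0684). How much of each value comes from RNA of neighbouring copies was not tested.

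The H4 genes had the second lowest class median, -0.65 and -1.09 in the replicates, but 4 of 14 passed the test. HIST1H4E read -2.11 and -2.41 (mean -2.26 ± 0.21 SD, n = 2, SE 0.651, adjusted p = 0.0256). HIST1H4J read -0.66 and -0.99 (mean -0.82 ± 0.24 SD, adjusted p = 0.0438), a call lost in 10 of 24 alternatives, and HIST1H4H and HIST1H4K, named after their values were seen, had adjusted p-values of 0.0453 and 0.0424. HIST1H4C, the brightest H4 gene, read -0.91 and -0.71 (mean -0.81 ± 0.14 SD, SE 0.503, adjusted p = 0.256). HIST1H4D read -1.24 and -1.09 (adjusted p = 0.126), and HIST1H4F -0.20 and -1.05 (adjusted p = 0.0918). Genes such as HIST1H4C and HIST1H4D were thus low in both G9a siRNA replicates, and their SDs over the UNC0638 replicates, which share the fit, were 1.08 and 1.14. The stem-loop probe of HIST1H4K printed above read -0.98 and -1.34 (adjusted p = 0.0188 over all probes), against -0.49 and -1.13 for the brightest probe. By their own probes, HIST2H4A and HIST4H4 were above background in neither channel on the G9a siRNA arrays. The HIST2H4B probe also lists HIST2H4A, and it had a mean of -0.57 ± 0.50 SD (adjusted p = 0.0688 over all probes).

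**Figure D2:**
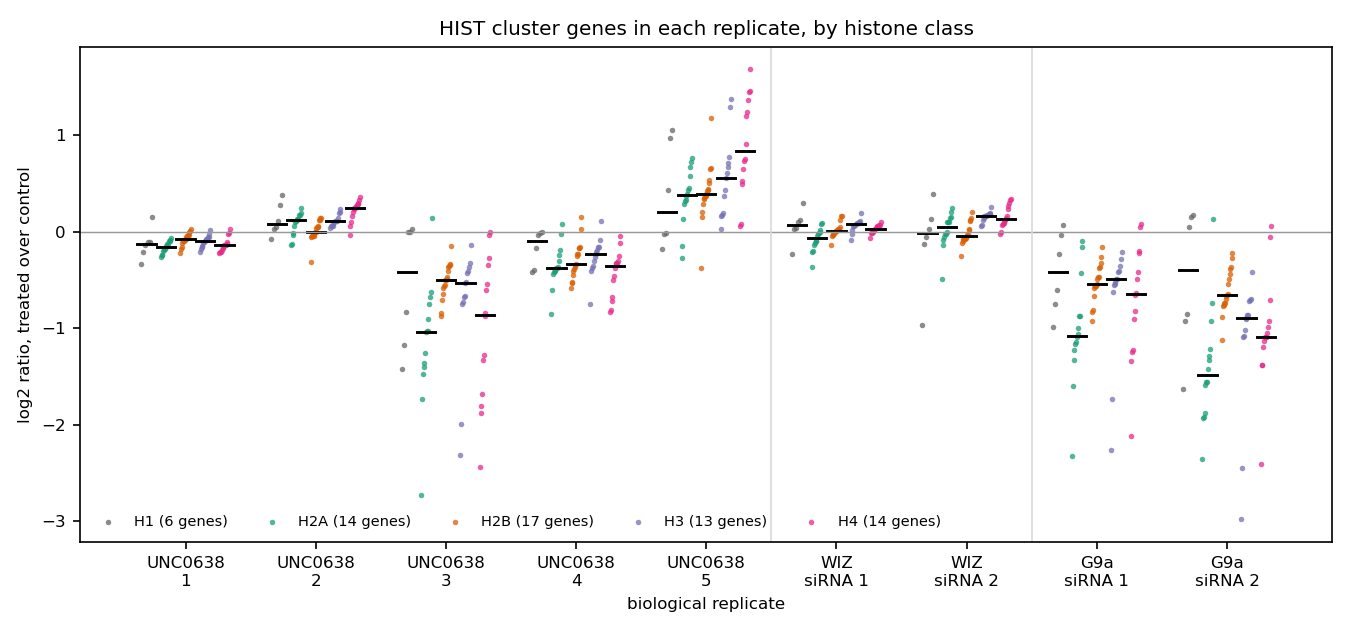
Log2 ratio of treated over control RNA (y axis) of the 64 tested HIST cluster genes in each biological replicate (x axis), 1 point per gene, coloured by histone class, with a black bar at each class median. In G9a siRNA replicates 1 and 2 the H2A, H2B, H3 and H4 medians all lie below 0, in the WIZ siRNA replicates they lie near 0, and in UNC0638 replicates 3 and 5 they lie on opposite sides of 0.

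Among the 13 replication-independent genes, 6 fell under G9a siRNA and 0 rose, with replicate medians of -0.24 and -0.41. The lowest was H1FX, a linker histone outside the HIST clusters, whose probe lies at chr3:129034466-129034525 on build 37.1. It read -1.72 and -2.39 (mean -2.06 ± 0.47 SD, n = 2, SE 0.265, adjusted p = 0.00289). Its promoter, printed above, has TATAAA and GGTCC but no CCAAT within those bases. H2AFX, whose protein is phosphorylated around DNA breaks, read -0.84 and -0.77 (mean -0.81 ± 0.05 SD, adjusted p = 0.00358). H2AFJ read -0.97 and -1.22 (mean -1.10 ± 0.18 SD, adjusted p = 0.00478), but its second probe, dim on these arrays, read 0.09 and -0.06. H2AFY, the gene of macroH2A, had a smaller change of -0.24 and -0.26 (adjusted p = 0.045), a call lost in 14 of 24 alternatives.

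The brightest probes for both genes of H3.3, the H3 variant laid down outside replication, were lower. Each H3F3A probe also lists further loci, so its values are not specific to H3F3A. H3F3A read -0.36 and -0.58 (mean -0.47 ± 0.15 SD, adjusted p = 0.028) and H3F3B -0.24 and -0.55 (mean -0.39 ± 0.22 SD, adjusted p = 0.0222). The other probes of both genes did not follow: those of H3F3A read -0.02 and -0.27, and 0.02 and 0.06, and that of H3F3B read -0.07 and 0.16. The H3F3 changes thus hold for 1 probe of each gene. With median centring neither was called (adjusted p = 0.258 for H3F3A and 0.173 for H3F3B), and with the GC trend removed H3F3B read -0.06 (adjusted p = 0.589).

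Neither gene of H2A.Z was called by its brightest probe. H2AFV read 0.35 and 0.42 (mean 0.39 ± 0.05 SD, adjusted p = 0.0589), and its second probe 0.68 and 0.99 (adjusted p = 0.0421 over all probes). H2AFZ read 0.26 and -0.10 (adjusted p = 0.698). H1F0, the linker histone of resting and differentiated cells, read -0.20 and -0.47 (adjusted p = 0.0629), and H2AFY2 -0.55 and -0.33 (adjusted p = 0.145). H1FNT, H2AFB2 and H2AFB3, known from testis, had treated channels below background and ratios from -0.41 to 0.05.

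**Figure D3:**
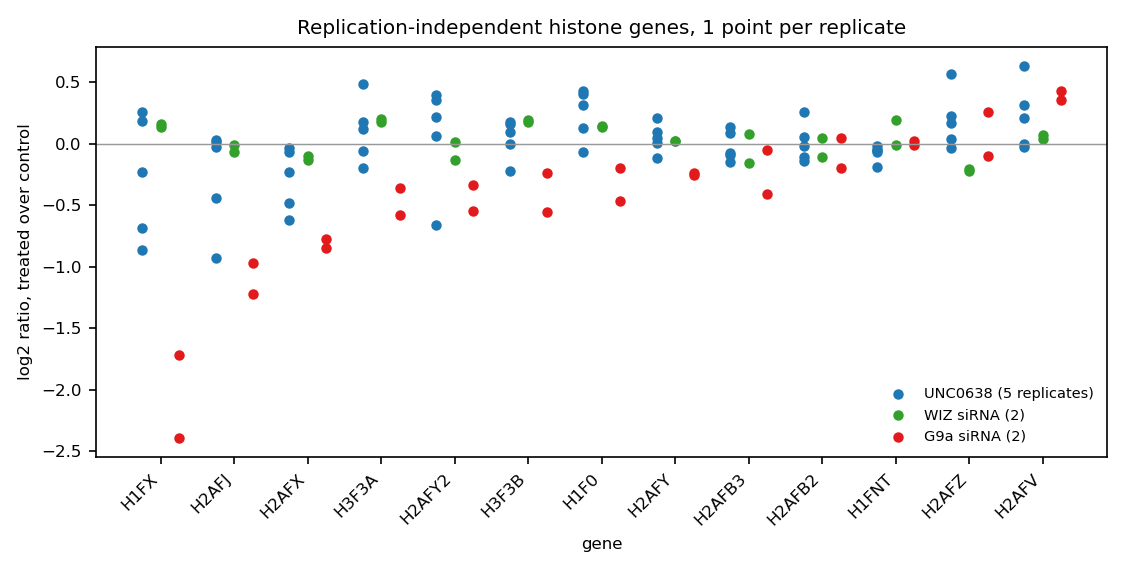
Log2 ratio of treated over control RNA (y axis) of the 13 tested replication-independent histone genes (x axis, ordered by their G9a siRNA mean), 1 point per biological replicate, blue for UNC0638 (5), green for WIZ siRNA (2) and red for G9a siRNA (2). H1FX, H2AFJ and H2AFX have both G9a siRNA points below -0.7, while H2AFV has both above 0.3.

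The second comparison asks which histone transcripts depend on the activity of G9a and GLP. With UNC0638, 0 of the 77 histone genes were called in limma, against 3.65% of all features called in either direction, and the smallest adjusted p was 0.105. Before adjustment, 2 were higher and 3 lower at p below 0.05, against 2656 higher and 3356 lower of all 28931 features. The replicates did not move alike: the median over the 64 HIST genes was -0.11, 0.11, -0.66, -0.33 and 0.44 in replicates 1 to 5. The same medians over the 13 replication-independent genes were 0.01, -0.03, -0.07, 0.12 and -0.02. The absence of calls in the HIST clusters thus came with a wide spread among replicates 3 to 5. In replicates 1 and 2 the HIST ratios were smaller, from -0.33 to 0.15 and from -0.31 to 0.38.

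Replicates 3 and 5 lay on opposite sides for nearly the whole set. Of the 64 HIST genes, 57 (89.1%) were below 0 in replicate 3 and above 0 in replicate 5, against 23.5% of all features and 4 of the 13 replication-independent genes. The 7 exceptions were HIST1H1A, HIST1H1B, HIST1H1T, HIST1H2AC, HIST1H2BE, HIST2H2AA4 and HIST3H2A. Replicates 3 and 4 were both below 0 and replicate 5 above 0 for 55 of the 64 (85.9%, against 14.9% of all features). In the first array set, 45 of the 64 (70.3%) were below 0 in replicate 1 and above 0 in replicate 2, against 25% of all features. Over the 77 genes the median of replicate 1 was 0.01 where Cy3 held the treated RNA and -0.21 where Cy5 did, and that of replicate 2 was 0.07 and 0.11. Only 3 of the 64 were below 0 in all 5 replicates and 0 were above 0 in all 5. The treated RNA was in Cy5 in each of replicates 3 to 5.

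Single genes show the size of this spread. HIST1H3B read 0.02, 0.20, -2.31, -0.41 and 1.30 in UNC0638 replicates 1 to 5 (mean -0.24 ± 1.32 SD, n = 5). HIST1H4E read -0.02, 0.20, -2.43, -0.68 and 1.36 (mean -0.31 ± 1.39 SD). HIST2H3A read -0.05, 0.23, -2.0, -0.75 and 1.37 (mean -0.24 ± 1.24 SD). These are 3 of the 4 genes with the lowest means under G9a siRNA, and each was low in replicate 3 and high in replicate 5. HIST1H4C read -0.22, 0.10, -1.28, -0.32 and 1.68 (mean -0.01 ± 1.08 SD), the highest replicate 5 value of all histone genes. HIST1H1D read -0.21, 0.27, -1.17, -0.17 and 0.97 (mean -0.06 ± 0.78 SD), and HIST1H1C -0.33, 0.11, -0.83, -0.42 and 0.43 (mean -0.21 ± 0.49 SD). HIST2H2AA4 was not high in replicate 5: it read -0.24, -0.14, -2.73, -0.85 and -0.27 (mean -0.85 ± 1.09 SD, adjusted p = 0.187), below 0 in every replicate.

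The span between the highest and the lowest of the 5 replicates had a median of 1.20 over the HIST genes, 0.586 over the replication-independent genes and 0.396 over all features. It passed 1 for 37 of the 64 HIST genes (57.8%) and 6.59% of all features. By class, replication-independent members included, the median span was 1.56 for H4, 1.10 for H2A, 0.898 for H3, 0.844 for H2B and 0.495 for H1. Across the 64 HIST genes, replicates 3 and 5 correlated at -0.56, against 0.13 over all 28931 features, a description over genes that share both libraries. The HIST genes lowest in replicate 3 thus tended to be the highest in replicate 5.

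**Figure D4:**
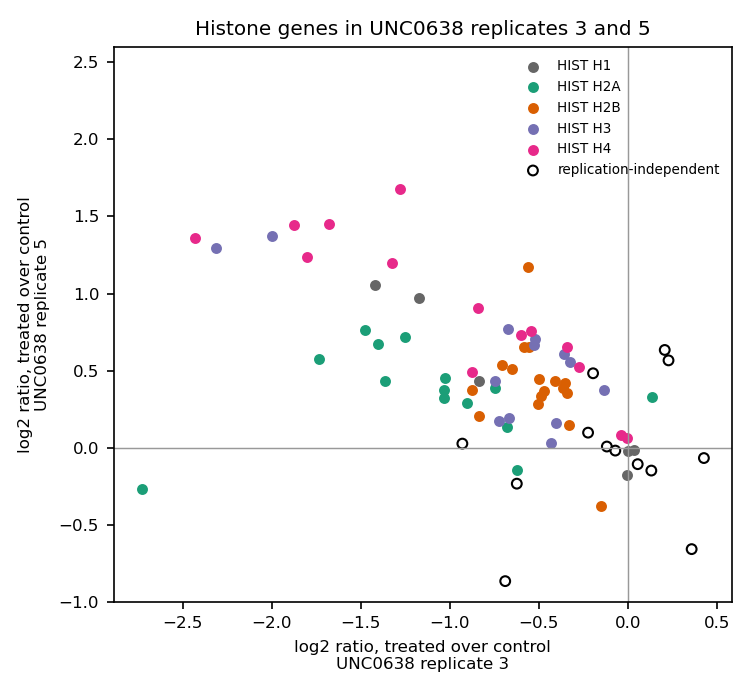
Log2 ratio of treated over control RNA in UNC0638 replicate 3 (x axis) against replicate 5 (y axis) for the 77 tested histone genes, filled points for HIST cluster genes by class and open circles for replication-independent genes. Of the 64 HIST genes, 57 lie in the upper left of the plot, and the H4 genes with the lowest replicate 3 values have replicate 5 values above 1.

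The correlation of the ratio with probe GC content was -0.43 in replicate 3 and -0.23 in replicate 5. The 3121 other features of like GC content had medians of -0.21 and -0.10 in these replicates. With the GC trend taken off, the median of 62 histone genes was -0.44 in replicate 3, -0.21 in replicate 4 and 0.49 in replicate 5. Within the second array set alone, 2 genes were called, H2AFV (mean 0.39, adjusted p = 0.0238) and H2AFX (mean -0.45, adjusted p = 0.012), against 10.9% of all features in either direction. Within the first set 0 were called.

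The replication-independent genes were steadier, and the 2 genes with an unadjusted p below 0.05 on the higher side were among them. H1F0 read 0.41, 0.12, 0.43, 0.31 and -0.07 (mean 0.24 ± 0.21 SD, n = 5, SE 0.0775, adjusted p = 0.133). H2AFV read -0.00, -0.02, 0.21, 0.32 and 0.63 (mean 0.23 ± 0.27 SD, adjusted p = 0.197), with both replicates of the first set near 0 and all 3 of the second above it. H2AFX read -0.04, -0.07, -0.62, -0.48 and -0.23 (mean -0.29 ± 0.26 SD, adjusted p = 0.105), below 0 in 5 of 5 replicates. The others with lower unadjusted p-values were HIST2H2AA4, above, and HIST3H2A, at -0.15, -0.01, -0.62, -0.19 and -0.14 (mean -0.22 ± 0.23 SD, adjusted p = 0.184). H1FX read 0.26, -0.23, -0.69, 0.19 and -0.87 (mean -0.27 ± 0.50 SD, adjusted p = 0.39). H2AFJ read 0.01, -0.03, -0.93, -0.44 and 0.03 (mean -0.27 ± 0.42 SD). The low values of H1FX in replicates 3 and 5 had the same sign, unlike those of the HIST genes.

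The variant genes H2AFZ, H2AFY2 and H3F3A differed between replicates as well. H2AFZ read -0.04, 0.04, 0.23, 0.17 and 0.57 (mean 0.19 ± 0.23 SD). H2AFY2 read 0.40, 0.22, 0.36, 0.06 and -0.66 (mean 0.08 ± 0.43 SD). H3F3A read -0.06, 0.17, -0.20, 0.12 and 0.48 (mean 0.10 ± 0.26 SD). None of the 3 passed the test. H3F3B read 0.18, 0.16, -0.22, -0.00 and 0.10, and H2AFY 0.05, 0.10, -0.12, 0.21 and 0.01, within 0.25 of 0 in every replicate.

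The third comparison asks which histone transcripts depend on WIZ. Under WIZ siRNA, 0 of the 77 histone genes were called, against 0.615% of all features, and the smallest adjusted p was 0.185. Before adjustment, 0 were higher and 2 lower at p below 0.05, against 858 higher and 1477 lower of all 28931 features. The histone genes had medians of 0.03 and 0.08 in the replicates, and 0 of the 77 had a mean beyond 0.5 in either direction, against 1.3% of all features. By class the replicate medians lay between -0.05 and 0.17, the H3 genes at 0.09 and 0.17 and the H4 genes at 0.03 and 0.13. By dye orientation the medians over the 77 genes were -0.01 and 0.07 where Cy3 held the treated RNA and 0.07 and 0.03 where Cy5 did. The H4 genes differed more by dye, with medians of -0.23 and 0.00 where Cy3 held the treated RNA and 0.29 and 0.29 where Cy5 did. With the spread taken from the WIZ replicates alone, 13 of the 77 genes were called, 9 higher and 4 lower, together with 23.7% of all features.

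The genes lowest under G9a siRNA stayed near 0 here. HIST1H3B read -0.09 and 0.25 (mean 0.08 ± 0.24 SD, n = 2), HIST2H2AA4 0.01 and -0.02, HIST1H4E -0.07 and 0.16, HIST2H3A -0.03 and 0.16, and H1FX 0.14 and 0.16. The lower gene by unadjusted p with detectable signal was HIST1H2AC, at -0.37 and -0.49 by its brightest probe (mean -0.43 ± 0.08 SD, adjusted p = 0.185), and its other probes read 0.34 and 0.16, and 0.04 and 0.18. HIST1H1T read 0.04 and -0.97 (adjusted p = 0.551), with its treated channel above background on 2 of 4 arrays. HIST1H1D, the highest mean, read 0.30 and 0.39 (mean 0.34 ± 0.06 SD). H2AFZ read -0.22 and -0.21 (mean -0.21 ± 0.01 SD, adjusted p = 0.875), and H3F3A and H3F3B read 0.17 to 0.20 in both replicates.

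The treatments were then compared with each other in the same fit. Each contrast also holds differences in dye orientation and array set, and those with UNC0638 hold the difference between 48 h and 72 h as well. WIZ siRNA lies in the first set with both orientations, and G9a siRNA in the second with treated RNA in Cy5 only. UNC0638 has replicates of both kinds. For G9a siRNA minus UNC0638, 3 of the 77 histone genes were lower and 0 higher, against 6.58% of all features lower. They were H1FX (difference -1.79, SE 0.313, adjusted p = 0.0188), HIST3H2A (-0.96, SE 0.158, adjusted p = 0.0178), whose treated channel under G9a siRNA was not above background, and H1F0 (-0.57, SE 0.145, adjusted p = 0.0364). The HIST3H2A difference thus rests on a ratio that is a bound. The median difference over the 77 genes was -0.57, and 41 were lower before adjustment, against 4772 of all 28931 features. Over all features 12.7% were called in either direction. Without UNC0638 replicate 3 the count was 51 (28% of all features), without replicate 5 it was 7 (13.7%), and without G9a siRNA replicate 2 it was 0 (0%). With UNC0638 replicates 3 and 5 both left out it was 56 (32.8%).

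For WIZ siRNA minus G9a siRNA, 13 of the 77 histone genes were higher and 0 lower, against 10.9% of all features higher. Among the HIST genes they were HIST2H2AA4 (difference 2.34, SE 0.718, adjusted p = 0.0487), HIST2H2AB, HIST1H2AJ, HIST3H2A, HIST2H2BE, HIST1H3G, HIST2H3D and HIST1H3C. Outside the clusters they were H1FX (2.20, SE 0.375, adjusted p = 0.0102), H2AFJ, H2AFX, H3F3A and H3F3B. The probes of HIST2H2AA4 and H3F3A list further genes or loci and are not specific. The treated channels of HIST3H2A and HIST2H2BE under G9a siRNA were not above background. The count fell to 0 with array set as a block and without WIZ siRNA replicate 1, WIZ siRNA replicate 2 or G9a siRNA replicate 2, settings in which at most 0.0795% of all features were called in either direction. It was 5, 8, 4 and 6 without UNC0638 replicates 1, 2 and 4 and G9a siRNA replicate 1 (17.9%, 16.4%, 16.3% and 13.1% of all features), and 36 without UNC0638 replicate 3 (28.5%) or without replicate 5 (23%). For WIZ siRNA minus UNC0638, 0 of the 77 were called in limma, against 0.84% of all features, with a smallest adjusted p of 0.121. Of the 77, 0 were higher and 2 lower before adjustment, against 1518 and 1730 of all 28931 features.

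The 5 HIST genes known to make polyadenylated transcripts outside S phase were looked at apart. Under G9a siRNA, HIST1H1C, HIST1H2BK and HIST2H2BE fell, HIST1H2BD read -0.49 in both replicates (adjusted p = 0.0642), and HIST1H2AC depended on its probe, as above. In UNC0638 replicates 3 and 5, HIST1H2BK read -0.33 and 0.15 and HIST1H2BD -0.50 and 0.28. These are smaller values than those of HIST1H3B or HIST1H4E, with the same signs.

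Genes that act on histone mRNA went in both directions under G9a siRNA, with 8 of 21 higher (38.1%, against 15% of all features) and 5 lower (23.8%, against 18.2%; limma, adjusted p below 0.05). The share of lower genes was thus near that of all features. Unlike the histone genes, the genes of this list and of the S phase and chaperone lists were not followed through the alternatives. Over all features with a probe sequence, the G9a siRNA ratios correlated with GC content at -0.49 and -0.51, and its part in these lists was not tested. NPAT, the coactivator that carries cyclin E-CDK2 signals to histone promoters, rose, at 0.57 and 1.36 (mean 0.96 ± 0.56 SD, n = 2, adjusted p = 0.0049). CASP8AP2, which works with NPAT at histone locus bodies, rose, at 0.57 and 0.75 (mean 0.66 ± 0.13 SD, adjusted p = 0.00752). SLBP, the protein that binds the stem-loop, rose, at 0.21 and 0.58 (mean 0.40 ± 0.26 SD, adjusted p = 0.0289). CCNE2, encoding a cyclin E, rose too, at 0.80 and 1.24 (adjusted p = 0.00351). The remaining higher genes were CPSF2 and CPSF3 of the cleavage complex, the stem-loop exonuclease ERI1 and the cap-binding NCBP1, with means of 0.34 to 0.53.

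The lower ones included the S phase regulator E2F1, at -0.73 and -0.88 (mean -0.81 ± 0.10 SD, adjusted p = 0.00454), and HINFP, which binds the H4 element, at -0.40 and -0.55 (mean -0.47 ± 0.11 SD, adjusted p = 0.0108). LSM11 of the U7 particle and the processing factors SYMPK and CSTF2 completed them, with means of -0.36 to -0.48. With UNC0638 and WIZ siRNA 0 of the 21 genes were called (1 higher and 1 lower before adjustment with UNC0638, 0 with WIZ siRNA). In UNC0638, 8 of the 21 were above 0 in replicate 3 and below 0 in replicate 5, against 19.6% of all features. CDK2, which phosphorylates NPAT, was among them at 0.81 and -1.32, while NPAT, at 0.43 and 0.44, and CPSF3, at 0.38 and 0.71, were above 0 in both (genes named after their values were seen).

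Of 18 S phase genes, 1 rose under G9a siRNA, TYMS (0.72 and 1.25, adjusted p = 0.00505), and 3 fell, the helicase subunits MCM5 (-0.62 and -0.96, adjusted p = 0.00411) and MCM7 (-0.56 and -0.83, adjusted p = 0.00405) and the thymidine kinase TK1 (-0.45 and -0.33, adjusted p = 0.0108). These are 5.56% higher and 16.7% lower, against 15% and 18.2% of all features, so that the share of lower genes was near that of all features. The list had medians of 0.18 and 0.06, above 0 where the HIST genes were at -0.56 and -0.90. In UNC0638 replicates 3, 4 and 5 its medians were 0.14, 0.06 and -0.23. In replicate 3 above 0 and in replicate 5 below 0 were 8 of the 18, against 19.6% of all features. Among single genes named after their values were seen, UHRF1 read 0.95, -0.08 and -1.0, whereas PCNA read 0.13, 0.17 and 0.56, TYMS 0.71, 0.46 and 0.28, and MCM5 -0.48, -0.09 and -0.34. HIST and S phase medians thus had opposite signs in each of these 3 replicates, and their part in each other was not tested. With UNC0638 and with WIZ siRNA 0 of the 18 were called (0 and 1 before adjustment).

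Histone chaperones, which carry histones to DNA, were lower for 11 of 23 under G9a siRNA (47.8%, against 18.2% of all features) and higher for 5 (21.7%, against 15%). Among the lower ones, DAXX, a chaperone of H3.3, read -0.72 and -0.97 (adjusted p = 0.00309), ASF1B, an S phase chaperone of H3 and H4, read -0.45 and -0.60 (adjusted p = 0.00429), and TONSL, which binds new H4, read -0.77 and -1.05 (adjusted p = 0.00291). CHAF1A, HIRA, UBN1, CABIN1, MCM2, IPO4, NAP1L4 and SUPT6H were lower as well. Higher were ATRX, the partner of DAXX, at 0.95 and 1.68 (adjusted p = 0.00291), ASF1A at 0.94 and 1.11 (adjusted p = 0.00358), the H2A.Z chaperone ANP32E at 0.79 and 1.20 (adjusted p = 0.00556), RBBP7 and NAP1L1. The paralogs ASF1A and ASF1B, and the partners ATRX and DAXX, thus differed in direction. With UNC0638 and with WIZ siRNA 0 of the 23 were called (1 higher and 1 lower, and 0 higher and 2 lower, before adjustment).

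**Figure D5:**
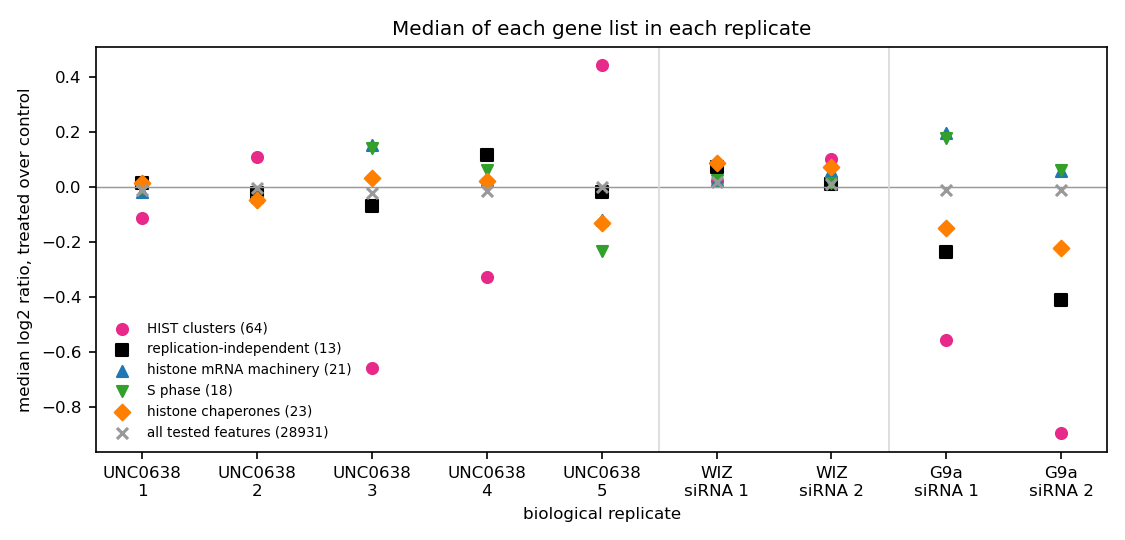
Median log2 ratio of treated over control RNA (y axis) of the HIST cluster genes (64), the replication-independent histone genes (13), the genes of the histone mRNA machinery (21), the S phase genes (18), the histone chaperones (23) and all tested features (28931) in each biological replicate (x axis). The HIST median runs from -0.66 in UNC0638 replicate 3 to 0.44 in replicate 5 and reaches -0.90 in G9a siRNA replicate 2, while the S phase median has the opposite sign in these replicates.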

How the data were processed

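Total RNA of HEK293T cells was measured on 13 2-colour Agilent arrays, 9 biological replicates in all. Spot and background intensities are the deposited mean and median pixel brightness of each channel, uncorrected per the file headers. The log2 ratio in the same files was made by the authors with background subtraction and a brightness-dependent normalization, per the file headers. The authors' series table holds processed log10 ratios, whose centring and filters are not given in the sources used here. Set against the array files it runs control over treated on 8 arrays and treated over control on 5, and its column medians lie between -0.01 and 0.00818. Both served as alternatives.

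Intensities were background-corrected with normexp (offset 50) over all 62976 spots, normalized by loess within each array (weight 0 for 4259 control spots), averaged per probe, turned to treated over control by the dye labels, and averaged over dye swaps. A probe passed where it exceeded background by 2.6 background SDs on at least 50% of the arrays of 1 of the 6 RNA groups (34619 of 42405). The brightest probe per gene gave 28931 features. The share of probes above background ran from 47.8% to 91.4% in treated and 57.5% to 92.7% in control RNA, and the number of arrays limits the precision. They entered 1 limma fit (limma 3.58.1, R 4.3.3, 6 residual degrees of freedom, no covariate), with Benjamini-Hochberg adjustment, tested on simulated data. Sequences were read with Python 3.11.15, and figures drawn with matplotlib 3.10.9. Replicate numbers did not pair the samples (correlations of deviations from -0.03 to 0.11).

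Genes named are every replication-independent gene, the 10 called with the largest change, the brightest, highest and lowest of each class, and genes with probes of opposite sign (41 in all), with list genes. The members and lists were chosen with earlier results of these data known. Alternatives covered background, normalization, filters, probes, dye, base composition, array set and replicates. No sample was left out.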

Additional observations from a re-analysis of the deposited data

Results flagged for a closer look

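In UNC0638 replicate 3, HIST2H2AA4 lay at -2.73 and HIST2H2AC at -1.73, each far enough from the other 4 replicates to pass Dixon's test at the 95% level (critical value 0.71). These are 2 of the 41 histone genes so tested, beside 8 medians over genes of which 0 passed, while 1822 of all 28931 features (6.3%) passed for UNC0638, and chance alone gives about 1 in 20. The same replicate had the largest SD over all features among the UNC0638 replicates, 0.505.

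Under G9a siRNA the ratio differed from that with UNC0638 by -0.57 in H1F0, -1.79 in H1FX and -0.96 in HIST3H2A. Under WIZ siRNA the ratio was above that under G9a siRNA by 2.20 in H1FX, 1.06 in H2AFJ, 0.69 in H2AFX, 1.21 in HIST1H2AJ, 2.34 in HIST2H2AA4, 1.65 in HIST2H2AB, 1.13 in HIST3H2A, 1.02 in HIST2H2BE, 0.66 in H3F3A, 0.58 in H3F3B, 0.64 in HIST1H3C, 0.97 in HIST1H3G and 0.66 in HIST2H3D. Each passed the limma contrast at an adjusted p below 0.05. The probes of HIST2H2AA4 and H3F3A list further genes or loci, so their differences belong to no single gene. The treated channels of HIST3H2A and HIST2H2BE under G9a siRNA were not above background, so that their differences rest on bounds. WIZ siRNA and G9a siRNA lie in separate array sets, and with set as a block, estimated through the replicates of UNC0638 in both sets, 0 of the 13 were called.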

How the results depend on the processing

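Of the values that answer a comparison, 185 stayed near the main value. For a count this means within a set margin, and for a median within the SD between replicate medians, whatever its sign. Beyond that, 17 counts rose, 18 fell, 1 median moved and 1 reversed its sign. The calls under G9a siRNA (43) ranged from 0 to 64 with 1 replicate left out, where a lone sample was assumed to vary like the others, and its median from -0.85 to -0.55. It gave 5 calls with array set as a block and 66 without UNC0638 replicates 3 and 5, added after seeing the data. The median was -0.41 with the GC trend removed. For UNC0638 the count was 0 to 1 without 1 replicate (median -0.23 to 0.04), 1 with the dye effect subtracted (H1F0) and 2 within the second array set. For WIZ siRNA it was 0 without 1 replicate (median 0.03 to 0.08) and 13 on its own replicates, and its median reversed to -0.041 with array set as a block.

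G9a siRNA minus UNC0638 (3) gave 6 calls with no background subtraction, 12 with median centring, 11 with features above background everywhere, 7 with the GC trend removed, 10 on probes with a sequence (added later), 1 from the authors' log10 table, 56 without UNC0638 replicates 3 and 5, and 0 to 51 without 1 replicate. WIZ siRNA minus G9a siRNA (13) gave 3 from the authors' log2 ratio, 7 from the log10 table, 5 with the dye effect subtracted, 7 with the GC trend removed, 60 on its own replicates, 0 with array set as a block, 3 with the replicate number as a block, 56 without UNC0638 replicates 3 and 5, and 0 to 36 without 1 replicate. WIZ siRNA minus UNC0638 gave 0 throughout the 1-replicate omissions. The replicate block, whose numbers share only a label, gave 33 calls under G9a siRNA. These counts stand without the share of all features in the same setting, so they cannot be read as particular to the histone genes. The causes were not tested. Of 516 values of 22 genes named for G9a siRNA, 424 stayed called, 92 did not and 0 reversed.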
